A study of Homo sapiens with 48 samples.

Results

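Stress effectors downstream of ATF4 and CHOP were followed across ribosome-protected fragments (RPFs) and total cytoplasmic RNA after knockdown of a subunit of eIF2B. The group holds 9 genes chosen by name, PPP1R15A, TRIB3, CHAC1, DDIT4, SESN2, STC2, VLDLR, GDF15 and NUPR1, with earlier results of these data known. All 9 were present among the 11145 genes of the RPF table and the 11947 genes of the total RNA table. The cells were SW480, an established human colorectal cancer line with mutant APC, carrying a doxycycline (DOX)-inducible shRNA that is non-targeting (shCTRL) or directed at EIF2B1 (shEIF2B1, encoding eIF2Bα) or EIF2B4 (shEIF2B4, encoding eIF2Bδ). Each line was left uninduced (-DOX) or induced with 1 µg/ml DOX for 5 days (+DOX), once in each of 4 weeks, and RPFs and total RNA were prepared from each of the 24 lysates, which gives 48 libraries. Each target has 1 shRNA line here, so an effect of the line and an effect of the depleted subunit are separated only by the -DOX cells of the same line and by the shCTRL cells.

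eIF2B recycles the initiation factor eIF2 so that it can carry the initiator tRNA to the ribosome, and phosphorylated eIF2 inhibits it. When active eIF2 is scarce, the integrated stress response begins: the mRNA of the transcription factor ATF4 is translated more, and ATF4 raises the transcription of a second factor, CHOP (gene DDIT3). Together they act on genes that restart or restrain translation, restrain growth signalling, break down glutathione and send stress signals out of the cell. The 9 genes cover these arms: PPP1R15A and TRIB3 feed back on the pathway, DDIT4 and SESN2 restrain the kinase complex mTORC1, CHAC1 degrades glutathione, GDF15 and STC2 are secreted, VLDLR is a lipoprotein receptor and NUPR1 is a small chromatin-associated stress protein.

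A response below means the log2 change from -DOX to +DOX in a knockdown line minus the same change in shCTRL, fitted with limma over 16 libraries with the week as a block. A gene was called where its Benjamini-Hochberg adjusted p over all genes of that table was below 0.1, two-sided. The values are regularized log2 values, which compress the changes of low genes. Levels are therefore compared within a gene and not between genes, and a rank of a response among genes carries this compression.

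The depleted subunits were lower in their own lines. EIF2B1 RPF values were 8.35, 8.26, 8.46 and 8.34 in uninduced shEIF2B1 cells and 7.92, 7.48, 7.73 and 7.42 after DOX, and EIF2B4 RPF values were 7.55, 7.78, 8.06 and 7.69 in uninduced shEIF2B4 cells and 7.21, 6.78, 7.22 and 7.31 after DOX. In shEIF2B4 cells the +DOX values of EIF2B4 lay below all -DOX values, as in 2.64% of all genes. In shCTRL RPFs EIF2B1 also changed on DOX by a mean of -0.19 and EIF2B4 by -0.17, each lower in 3 of 4 weeks. Minus that change, EIF2B1 averaged -0.53 in shEIF2B1 cells and EIF2B4 -0.48 in shEIF2B4 cells, below 0 in 4 of 4 weeks. Before that subtraction the subunit not targeted was also lower on DOX on average, as it was in shCTRL. EIF2B4 averaged -0.35 in shEIF2B1 cells, and -0.18 minus shCTRL, below 0 in 3 of 4 weeks. EIF2B1 averaged -0.16 in shEIF2B4 cells, and 0.02 minus shCTRL, below 0 in 2 of 4 weeks. The weekly RPF responses of ATF4 averaged 1.02 to shEIF2B1 and 0.76 to shEIF2B4, and those of DDIT3 averaged 1.49 and 1.73. Of 11 colon epithelial markers 6 were in each table (EPCAM, CDH1, KRT8, KRT18, KRT19 and CDX2), none of 5 fibroblast or 3 endothelial markers was in either, and of 5 immune markers CD68 was in both and CD14 in the RPF table. Mean RPF values per library were 6.99 to 7.02 in the shEIF2B4 line, below the 7.12 to 7.18 of the other lines. The files give no read counts, so the depth of each library is unknown. In these bulk samples, fewer cells expressing a gene and less RNA per cell cannot be told apart.

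The proximal promoters were searched for elements known to bind ATF4 with its C/EBP partners (CARE), ATF and CREB factors (CRE), or ATF6 and XBP1 (ERSE). RefSeq promoter windows (GRCh38.p14) of 300 bases, 250 before and 50 after the transcription start, were found for 8 of the 9 genes, with 3 windows for TRIB3 and none for NUPR1. The letters searched on both strands were TGATGNAAN (the C/EBP-ATF response element, CARE), TGACGTCA (the cAMP response element, CRE) and CCAAT, 9 bases of any kind and CCACG (the ER stress response element, ERSE). Among these 8 genes CARE letters were found in 1, CRE letters in 1 and ERSE letters in 0. Of all 27305 genes with a promoter window, 4.45%, 2.25% and 0.0916% held them. Both matches are printed 5′ to 3′ on the + strand, with the matched letters in capitals, because both genes rose in RPFs and total RNA in both knockdowns and theirs were the only matches in these windows. The CHAC1 stretch is chr15:40953251-40953279, with its CARE letters on the opposite strand to the gene from -210 to -202 of the RefSeq start and inside the annotated span of the gene, whose longer transcripts start earlier, and the PPP1R15A stretch is chr19:48872353-48872380, with its CRE letters on the gene's own strand from -58 to -51.
CHAC1: ctcccctgccGTTGCATCActcctgccag
PPP1R15A: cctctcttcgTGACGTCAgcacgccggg
A match is a description of the letters only, and the absence of one in the other 6 genes says no more than that these letters are not in those windows. The windows of TRIB3, GDF15 and STC2 also lie inside the annotated spans of their genes, so the bases before their earliest annotated starts were not searched.

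Knockdown of EIF2B1 was followed by higher RPFs of 8 of the 9 genes and lower RPFs of VLDLR, so that all 9 were called, beside 27.3% of all genes (12% higher and 15.3% lower). In total RNA the same 8 genes rose and VLDLR was not called, beside 3.47% of all genes called and 2.34% called higher. After knockdown of EIF2B4, 6 of the 9 rose in RPFs, where 2.75% of all genes were called and 1.88% were called higher, and 6 rose in total RNA, where 5.4% were called and 3.78% were called higher. TRIB3, GDF15, SESN2, PPP1R15A and CHAC1 rose in both measures in both knockdowns. The median RPF response of the 9 genes was 1.06 to shEIF2B1 and 1.20 to shEIF2B4, against -0.01 and -0.02 over all genes, and the median total RNA response was 0.68 and 0.58 against -0.0038 and 0.0018. The 2 responses share their shCTRL libraries, which are subtracted from each. Without the week as a block, limma called only TRIB3 and PPP1R15A in RPFs with shEIF2B1 (2 of 9, beside 0.449% of all genes) and only PPP1R15A with shEIF2B4 (1 of 9, beside 0.323%). Centring each library on its median left these counts of the 9 genes as they were, while the share called higher among all genes called went from 43.9% to 55.7% in RPFs with shEIF2B1 and from 70.1% to 59.4% in total RNA with shEIF2B4.

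**Figure D1:**
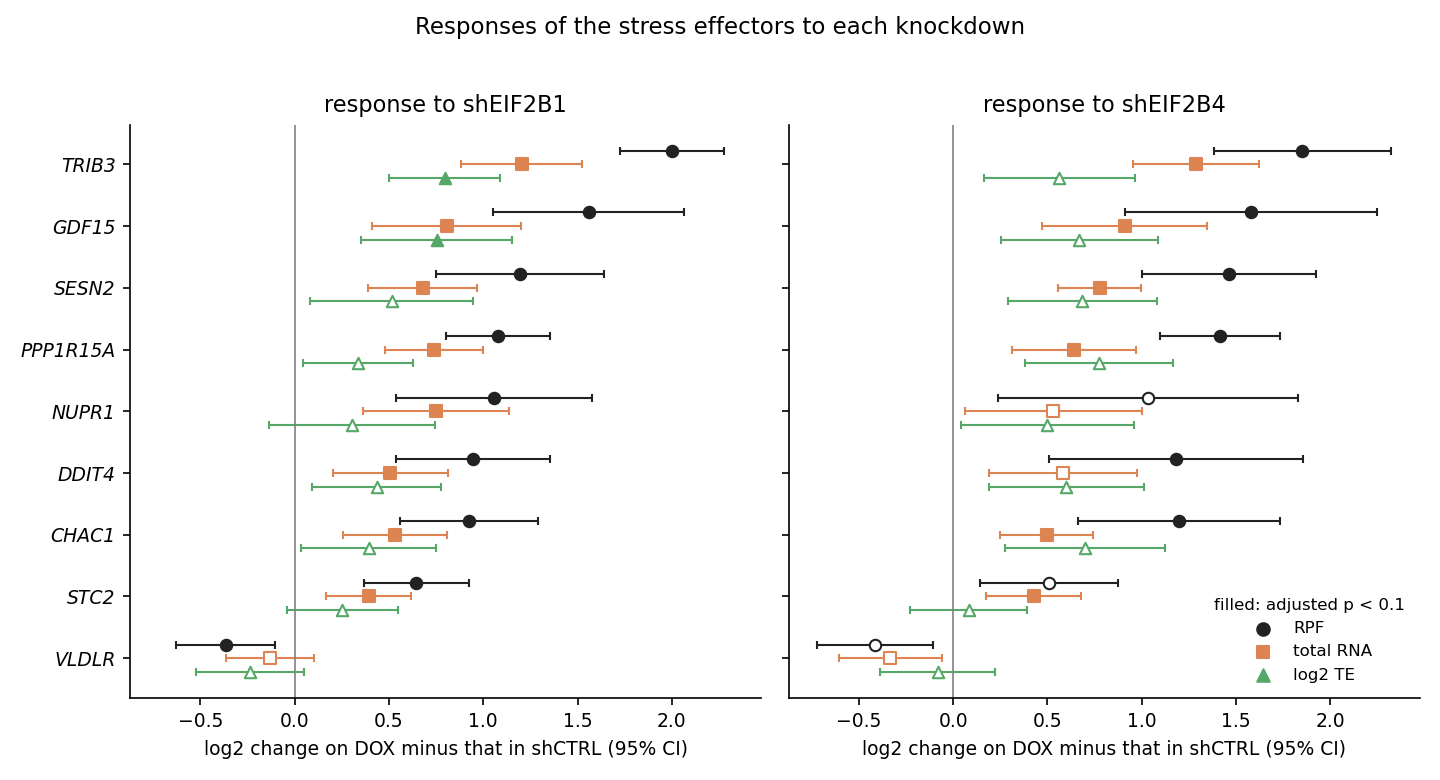
Responses of the 9 genes to shEIF2B1 (left) and shEIF2B4 (right), as the log2 change on DOX minus that in shCTRL, for RPF (circles), total RNA (squares) and log2 translation efficiency (triangles). Bars are 95% confidence intervals and filled symbols have an adjusted p below 0.1. TRIB3 has the highest RPF responses (2.00 and 1.85), and VLDLR alone lies below 0 in each measure.

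TRIB3, a pseudokinase that binds AKT and is a target and brake of ATF4 and CHOP, gave the highest responses of the group in RPFs and in total RNA (ENSG00000101255.12, chr20:362835-397559, + strand). Its RPF values were 8.67, 8.40, 8.59 and 7.75 in uninduced shEIF2B1 cells and 11.01, 10.48, 10.83 and 10.04 after DOX. In shEIF2B4 cells they were 9.51, 8.54, 7.90 and 7.64 and then 11.11, 10.52, 10.47 and 9.83, and in shCTRL cells 9.33, 8.52, 8.69 and 8.10 and then 9.33, 8.68, 9.13 and 8.44. In each knockdown line the induced values lay above all uninduced ones (8.2% of all genes in shEIF2B1 and 4.59% in shEIF2B4). The induced values of the 2 knockdown lines overlapped each other. RPFs of TRIB3 rose 4.00-fold with shEIF2B1 (log2 2.00, SE 0.13, adjusted p = 1.97e-08) and 3.61-fold with shEIF2B4 (log2 1.85, SE 0.22, adjusted p = 0.000116), which ranked 7 and 12 of all genes from the highest. Total RNA was 8.59, 8.80, 8.71 and 8.45 in uninduced shEIF2B1 cells and 10.11, 10.37, 10.26 and 10.10 after DOX, and in shEIF2B4 cells 8.77, 8.80, 8.26 and 8.43 and then 10.21, 10.37, 10.21 and 10.09. The groups did not overlap, and the rises of 1.20 (SE 0.15, adjusted p = 0.000119) and 1.29 (SE 0.16, adjusted p = 5.94e-05) on the log2 scale ranked 13 and 18 from the highest.

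PPP1R15A encodes GADD34, the subunit that directs protein phosphatase 1 to phosphorylated eIF2α (ENSG00000087074.8, chr19:48872392-48876057, + strand). RPF values were 6.65, 6.52, 6.66 and 6.55 in uninduced shEIF2B1 cells and 7.42, 7.26, 7.33 and 7.21 after DOX. In shEIF2B4 cells they went from 6.90, 6.54, 6.67 and 6.83 to 7.96, 7.57, 8.02 and 7.58, and in shCTRL cells they were 7.04, 6.50, 6.84 and 6.69 and then 6.61, 6.34, 6.40 and 6.26. This gene was the only one of the 9 whose 6 groups ordered as induced shEIF2B4, then induced shEIF2B1 without overlap, then the rest, and the only one of the 9 with a mean below that of its own -DOX group in induced shCTRL RPFs. The responses were 1.08 (SE 0.13, adjusted p = 2.99e-05) and 1.41 (SE 0.15, adjusted p = 3.49e-05), and they include that lower shCTRL value. In total RNA the responses were 0.74 (SE 0.12, adjusted p = 0.0021) and 0.64 (SE 0.16, adjusted p = 0.0296), and the second was lost without week 2 (adjusted p = 0.143) or week 4 (adjusted p = 0.175).

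**Figure D2:**
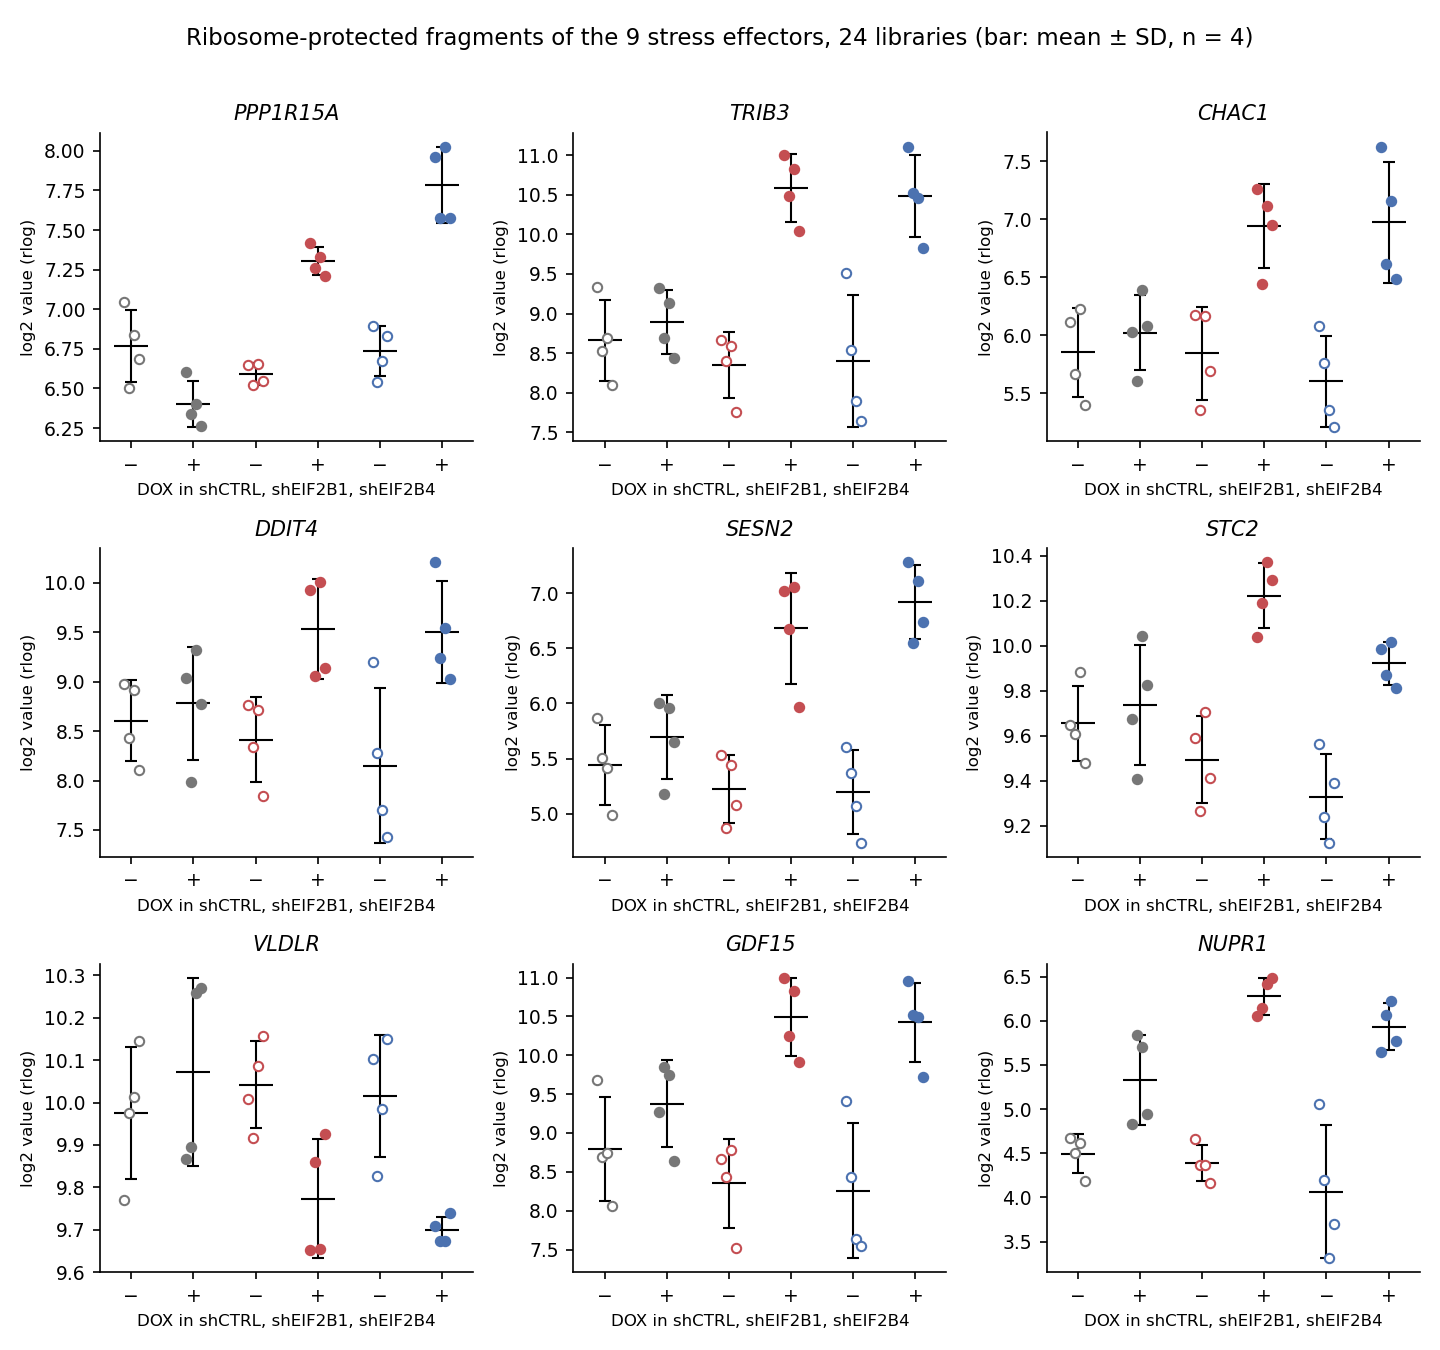
RPF value (rlog, log2) of each of the 9 genes in each of the 24 libraries, by line (shCTRL grey, shEIF2B1 red, shEIF2B4 blue) and DOX (open points -DOX, filled points +DOX), with mean ± SD over 4 weeks. Induced knockdown libraries of TRIB3 run from 9.83 to 11.11, and in NUPR1 the induced shCTRL libraries also lie above the uninduced ones of that line.

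DDIT4 and SESN2 encode inhibitors of mTORC1, the growth kinase complex that senses amino acids: DDIT4 (REDD1) acts through TSC2, and SESN2 binds leucine and the GATOR2 complex. SESN2 (ENSG00000130766.5, chr1:28259527-28282491, + strand) had RPF values of 5.53, 4.87, 5.44 and 5.08 in uninduced shEIF2B1 cells and 7.02, 6.68, 7.06 and 5.96 after DOX, and of 5.61, 5.37, 5.07 and 4.74 and then 7.28, 6.55, 7.11 and 6.73 in shEIF2B4 cells. In shCTRL cells the values were 5.87, 5.50, 5.41 and 4.99 and then 6.01, 5.18, 5.96 and 5.65. Its induced knockdown values cleared the -DOX values of their own line in every week, by less in week 4 of shEIF2B1 than in the other weeks. SESN2 RPFs rose 2.29-fold (log2 1.19, SE 0.21, adjusted p = 0.00135) and 2.76-fold (log2 1.46, SE 0.22, adjusted p = 0.0012). The total RNA of SESN2 rose by 0.68 (SE 0.14, adjusted p = 0.0115) and 0.78 (SE 0.10, adjusted p = 0.000173), the first not without week 4 (adjusted p = 0.137).

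DDIT4 (ENSG00000168209.6, chr10:72273920-72276036, + strand) responded less uniformly. RPF values were 8.77, 8.34, 8.71 and 7.84 in uninduced shEIF2B1 cells and 9.93, 9.05, 10.01 and 9.14 after DOX. The shEIF2B4 values were 9.20, 8.28, 7.70 and 7.43 and then 10.21, 9.24, 9.54 and 9.03, so that the lowest induced value lay within the range of the uninduced ones. In shCTRL cells they were 8.97, 8.43, 8.91 and 8.11 and then 9.04, 7.99, 9.32 and 8.78, and the uninduced values of each line were highest in week 1 and lowest in week 4. Its RPFs rose by 0.94 with shEIF2B1 (SE 0.20, adjusted p = 0.0038) and by 1.18 with shEIF2B4 (SE 0.32, adjusted p = 0.081), and the latter call was lost without week 2 (adjusted p = 0.262), week 3 (0.237) or week 4 (0.353). Total RNA gave 0.51 with shEIF2B1 (SE 0.15, adjusted p = 0.0825), which leaving out any 1 week turned to an adjusted p of 0.113 to 0.282, a block for each line and week to 0.117 and all 24 libraries in one fit to 0.126. With shEIF2B4 it was 0.58 (adjusted p = 0.105), not called, and called with that block (0.0689) or all 24 libraries (0.0773).

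CHAC1, a γ-glutamylcyclotransferase that breaks down glutathione, is a low gene in both tables (ENSG00000128965.13, chr15:40952962-40956519, + strand). The RPF values of CHAC1 were 6.18, 5.35, 6.16 and 5.69 in uninduced shEIF2B1 cells and 7.26, 6.44, 7.12 and 6.95 after DOX. In shEIF2B4 cells they were 6.08, 5.77, 5.36 and 5.21 and then 7.63, 6.62, 7.16 and 6.49, while in shCTRL cells they stood at 6.12, 5.67, 6.23 and 5.40 and then 6.03, 5.60, 6.39 and 6.08. In each knockdown line the induced values lay above all uninduced ones, as in 8.2% of all genes in shEIF2B1 and 4.59% in shEIF2B4. RPFs rose 1.90-fold (log2 0.93, SE 0.18, adjusted p = 0.00208) and 2.29-fold (log2 1.20, SE 0.26, adjusted p = 0.0223), the second not without week 3 (adjusted p = 0.165). In total RNA CHAC1 went from 5.58, 5.32, 5.52 and 5.40 to 5.87, 6.33, 6.22 and 6.08 in shEIF2B1 cells and from 5.33, 5.53, 5.23 and 5.22 to 5.96, 5.91, 6.03 and 5.96 in shEIF2B4 cells. The rises were 0.53 (SE 0.13, adjusted p = 0.0434) and 0.50 (SE 0.12, adjusted p = 0.0246). The first was lost without week 2 (adjusted p = 0.157), week 3 (0.19) or week 4 (0.145), and the second without week 3 (0.128).

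GDF15, a secreted cytokine of the TGF-β superfamily that acts on the brainstem receptor GFRAL, had the second highest RPF response in both knockdowns (ENSG00000130513.6, chr19:18374731-18389176, + strand). RPF values were 8.67, 8.43, 8.78 and 7.52 in uninduced shEIF2B1 cells and 10.99, 10.25, 10.83 and 9.91 after DOX. They were 9.42, 8.43, 7.63 and 7.55 and then 10.96, 10.52, 10.49 and 9.73 in shEIF2B4 cells. The shCTRL cells gave 9.69, 8.69, 8.74 and 8.06 and then 9.27, 9.85, 9.75 and 8.64. The induced control was higher than its -DOX cells in 3 of 4 weeks, by up to 1.17, so that part of the change within the knockdown lines is removed by the subtraction. After it, RPFs rose 2.95-fold with shEIF2B1 (log2 1.56, SE 0.24, adjusted p = 0.000406) and 2.99-fold with shEIF2B4 (log2 1.58, SE 0.32, adjusted p = 0.0153). Total RNA of GDF15 was 6.43, 6.55, 6.53 and 6.27 and then 7.49, 8.05, 8.03 and 7.61 in shEIF2B1 cells, and 6.79, 6.68, 6.11 and 6.26 and then 7.74, 8.15, 7.95 and 7.82 in shEIF2B4 cells. The rises of 0.81 (SE 0.19, adjusted p = 0.0306) and 0.91 (SE 0.21, adjusted p = 0.0208) did not pass without week 4 (adjusted p = 0.155 and 0.129), nor did the RPF rise with shEIF2B4 (adjusted p = 0.274).

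STC2, a secreted glycoprotein hormone of the stanniocalcin family, moved least of the genes that rose (ENSG00000113739.11, chr5:173314713-173329503, - strand). RPF values were 9.59, 9.27, 9.71 and 9.41 in uninduced shEIF2B1 cells and 10.04, 10.19, 10.37 and 10.29 after DOX, and 9.56, 9.24, 9.13 and 9.39 and then 9.99, 9.87, 10.02 and 9.81 in shEIF2B4 cells. In both lines the induced values were higher, but those of shEIF2B4 overlapped induced shCTRL (9.68, 9.41, 10.04 and 9.82). The RPFs rose by 0.65 with shEIF2B1 (SE 0.13, adjusted p = 0.00388), and the response to shEIF2B4 of 0.51 (95% CI 0.15 to 0.87, adjusted p = 0.165) was not called. It was called without week 1 (adjusted p = 0.0535), with a block for each line and week (0.0842), with all 24 libraries in one fit (0.0916), and as the change within the line, without shCTRL subtraction (0.00264). In total RNA STC2 rose by 0.39 (SE 0.11, adjusted p = 0.0721) and 0.43 (SE 0.12, adjusted p = 0.0611). The first was lost without week 1 (adjusted p = 0.31), week 3 (0.155) or week 4 (0.353) and with a block for each line and week (0.114), and the second without week 1 (0.154), week 2 (0.245) or week 4 (0.212).

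VLDLR, the very low density lipoprotein receptor, went the other way (ENSG00000147852.17, chr9:2621834-2660053, + strand). Its RPF values were 10.01, 9.92, 10.09 and 10.16 in uninduced shEIF2B1 cells and 9.65, 9.86, 9.65 and 9.93 after DOX, and 10.10, 9.83, 9.99 and 10.15 and then 9.71, 9.67, 9.67 and 9.74 in shEIF2B4 cells. The shEIF2B1 groups overlapped by 1 value, and in shEIF2B4 every induced value lay below every uninduced one. RPFs fell by 0.37 with shEIF2B1 (95% CI -0.63 to -0.10, adjusted p = 0.0493), a call that was lost without week 1 (adjusted p = 0.169), week 3 (0.227) or week 4 (0.17). The response to shEIF2B4 was -0.41 (95% CI -0.72 to -0.11, adjusted p = 0.174), not called, but called with a block for each line and week (adjusted p = 0.0931) and without week 1, where it was -0.39 (adjusted p = 0.0798). Total RNA responses were -0.13 (95% CI -0.36 to 0.11) and -0.33 (95% CI -0.60 to -0.06), with adjusted p of 0.632 and 0.186.

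NUPR1, a small stress-induced protein that associates with chromatin, moved on DOX in all 3 lines before any subtraction (ENSG00000176046.9, chr16:28532708-28539174, - strand). RPF values were 4.67, 4.50, 4.62 and 4.18 in uninduced shCTRL cells and 4.83, 5.84, 5.70 and 4.95 after DOX. In shEIF2B1 cells they went from 4.67, 4.36, 4.37 and 4.16 to 6.06, 6.15, 6.42 and 6.49, and in shEIF2B4 cells from 5.06, 4.20, 3.31 and 3.69 to 5.65, 6.07, 6.23 and 5.78. Every induced library lay above the uninduced libraries of its own line. Over the control, the response was 1.06 with shEIF2B1 (SE 0.25, adjusted p = 0.00773) and 1.03 with shEIF2B4 (95% CI 0.24 to 1.83, adjusted p = 0.188), the second not called with all weeks and called without week 1 (adjusted p = 0.00363). In total RNA the responses were 0.75 (SE 0.18, adjusted p = 0.0419) and 0.53 (adjusted p = 0.219). The first was lost without week 3 (adjusted p = 0.139) or week 4 (0.218), and the second was called without week 1 (0.0887).

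**Figure D3:**
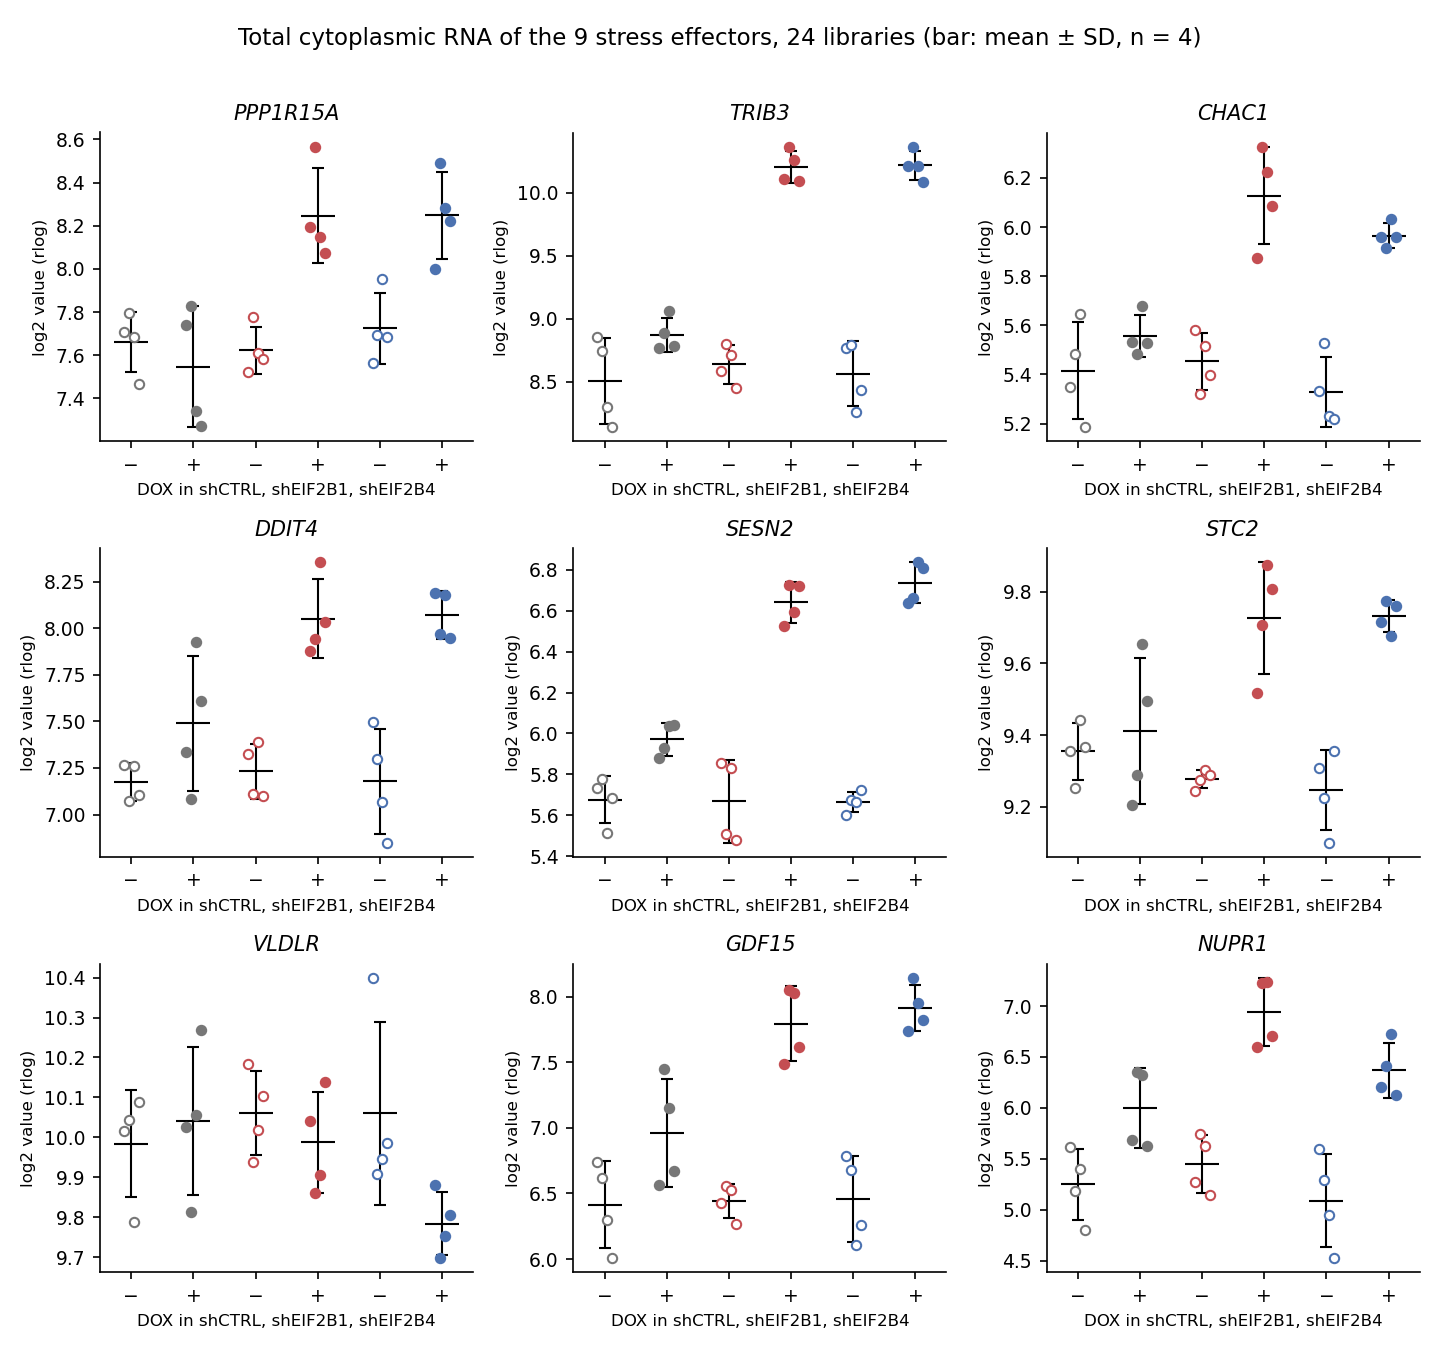
Total cytoplasmic RNA value (rlog, log2) of each of the 9 genes in each of the 24 libraries, by line (shCTRL grey, shEIF2B1 red, shEIF2B4 blue) and DOX (open points -DOX, filled points +DOX), with mean ± SD over 4 weeks. In 8 genes the induced knockdown libraries lie above the uninduced ones of their line, and in VLDLR the uninduced shEIF2B4 library of week 1 (10.4) lies apart from the other 3.

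Without any fit, the separation of the raw values can be read from each line. In RPFs all 4 +DOX libraries of shEIF2B1 lay above all 4 -DOX libraries in 8 of the 9 genes (8.2% of all genes), and in shEIF2B4 in 7 (4.59% of all genes), the exceptions being VLDLR in both and DDIT4 in shEIF2B4. In total RNA it was 8 of 9 in each line (13.8% and 14.6% of all genes). In the shCTRL line it was NUPR1 alone in RPFs (2.27% of all genes), and NUPR1 and SESN2 in total RNA (3.78%). VLDLR was the only one of the 9 with all induced values below the uninduced ones, in shEIF2B4, both in RPFs (2.64% of all genes) and in total RNA (12%).

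Whether ribosome occupancy changed beyond the RNA was asked with log2 translation efficiency (TE), the RPF value minus the total RNA value of the same lysate, over the 10836 genes in both tables. The 2 tables were normalized separately, so TE is compared between conditions and has no absolute level. A gene that is low in 1 table only is compressed more there, which can enter its TE response. GDF15 averaged 6.44 in total RNA and 8.35 in RPFs of uninduced shEIF2B1 cells, against medians over all genes of 7.89 and 6.99. How much of its TE response comes from unequal compression was not tested. Of the 9 genes, 2 had a higher TE after shEIF2B1, beside 7.1% of all genes called and 2.97% called higher. TE of TRIB3 rose by 0.80 (SE 0.14, adjusted p = 0.0184) and that of GDF15 by 0.75 (SE 0.19, adjusted p = 0.0418). Both calls were lost without week 1 (adjusted p = 0.165 and 0.317), week 3 (0.1001 and 0.125) or week 4 (0.104 and 0.265), and SESN2 was called without week 4 (0.0849) and DDIT4 without week 2 (0.0806). The other 7 responses to shEIF2B1 ran from -0.24 (VLDLR) to 0.52 (SESN2).

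After shEIF2B4 limma called no TE change among the 9, and of all 10836 genes it called 10 (0.0923%), with 1848 at an unadjusted p under 0.05, 7 of them among the 9. The values were 0.77 for PPP1R15A (unadjusted p = 0.000489, adjusted p = 0.121), 0.70 for CHAC1 (0.159), 0.69 for SESN2 (0.144), 0.67 for GDF15 (0.159), 0.60 for DDIT4 (0.185), 0.56 for TRIB3 (0.193) and 0.50 for NUPR1 (0.262), with the adjusted p in brackets. STC2 stood at 0.08 and VLDLR at -0.08. Without week 1, 7 of the 9 were called higher, with adjusted p between 0.0429 (TRIB3) and 0.0936 (CHAC1), beside 13.1% of all genes called. In each knockdown 8 of the 9 TE responses were above 0, as were 48.0% and 48.8% of all genes. The median TE response of the 9 was 0.39 to shEIF2B1 and 0.60 to shEIF2B4.

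The difference between the 2 knockdown responses (shEIF2B4 minus shEIF2B1) was tested directly over all 24 libraries, and limma called 0 of the 9 genes in RPFs, total RNA and TE. Over all genes it called 1 in RPFs (0.00897%), 12 in total RNA (0.1%) and 0 in TE (0%), with 713, 1528 and 665 at an unadjusted p under 0.05, of which 1, 0 and 1 were among the 9. PPP1R15A had the highest RPF difference of the 9, 0.34 (95% CI 0.05 to 0.62, unadjusted p = 0.0215, adjusted p = 0.746), with -0.10 in total RNA and 0.44 in TE (95% CI 0.09 to 0.79, adjusted p = 0.789). The RPF differences of CHAC1 (0.27, 95% CI -0.22 to 0.76), SESN2 (0.27, 95% CI -0.19 to 0.72) and DDIT4 (0.24, 95% CI -0.37 to 0.84) had intervals on both sides of 0. GDF15 (0.02, 95% CI -0.61 to 0.65) and NUPR1 (-0.02, 95% CI -0.75 to 0.70) were near 0 with wide intervals, and STC2 (-0.14) and TRIB3 (-0.15, 95% CI -0.60 to 0.30) were below it. The 3 genes called with shEIF2B1 but not with shEIF2B4 in RPFs, NUPR1, STC2 and VLDLR, had differences of -0.02, -0.14 and -0.05.

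The weeks did not contribute equally. TRIB3 RPF responses were 2.35, 1.92, 1.80 and 1.95 to shEIF2B1 in weeks 1 to 4 and 1.60, 1.82, 2.12 and 1.86 to shEIF2B4, and those of PPP1R15A were 1.21, 0.91, 1.11 and 1.09 and 1.50, 1.20, 1.79 and 1.17. GDF15 gave 2.74, 0.66, 1.03 and 1.81 to shEIF2B1 and 1.96, 0.92, 1.84 and 1.60 to shEIF2B4. Before the shCTRL change was subtracted, GDF15 moved by 2.33, 1.82, 2.05 and 2.39 in shEIF2B1 cells, so the spread between weeks was larger after the subtraction (SD 0.92) than before it (SD 0.26). SESN2 showed the same in shEIF2B1 cells, with 1.49, 1.81, 1.62 and 0.89 before and 1.35, 2.13, 1.07 and 0.23 after, while in shEIF2B4 cells its responses of 1.53, 1.50, 1.49 and 1.34 (SD 0.09) were closer together than the changes within the line (SD 0.40). The RPF response was above 0 in 4 of 4 weeks for the 8 genes other than VLDLR in both knockdowns, and below 0 for VLDLR in 3 of 4 and 4 of 4 weeks. In total RNA the 8 genes were above 0 in 4 of 4 weeks in both knockdowns, except NUPR1 with shEIF2B4 (3 of 4), and VLDLR was below 0 in 3 of 4 in both.

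**Figure D4:**
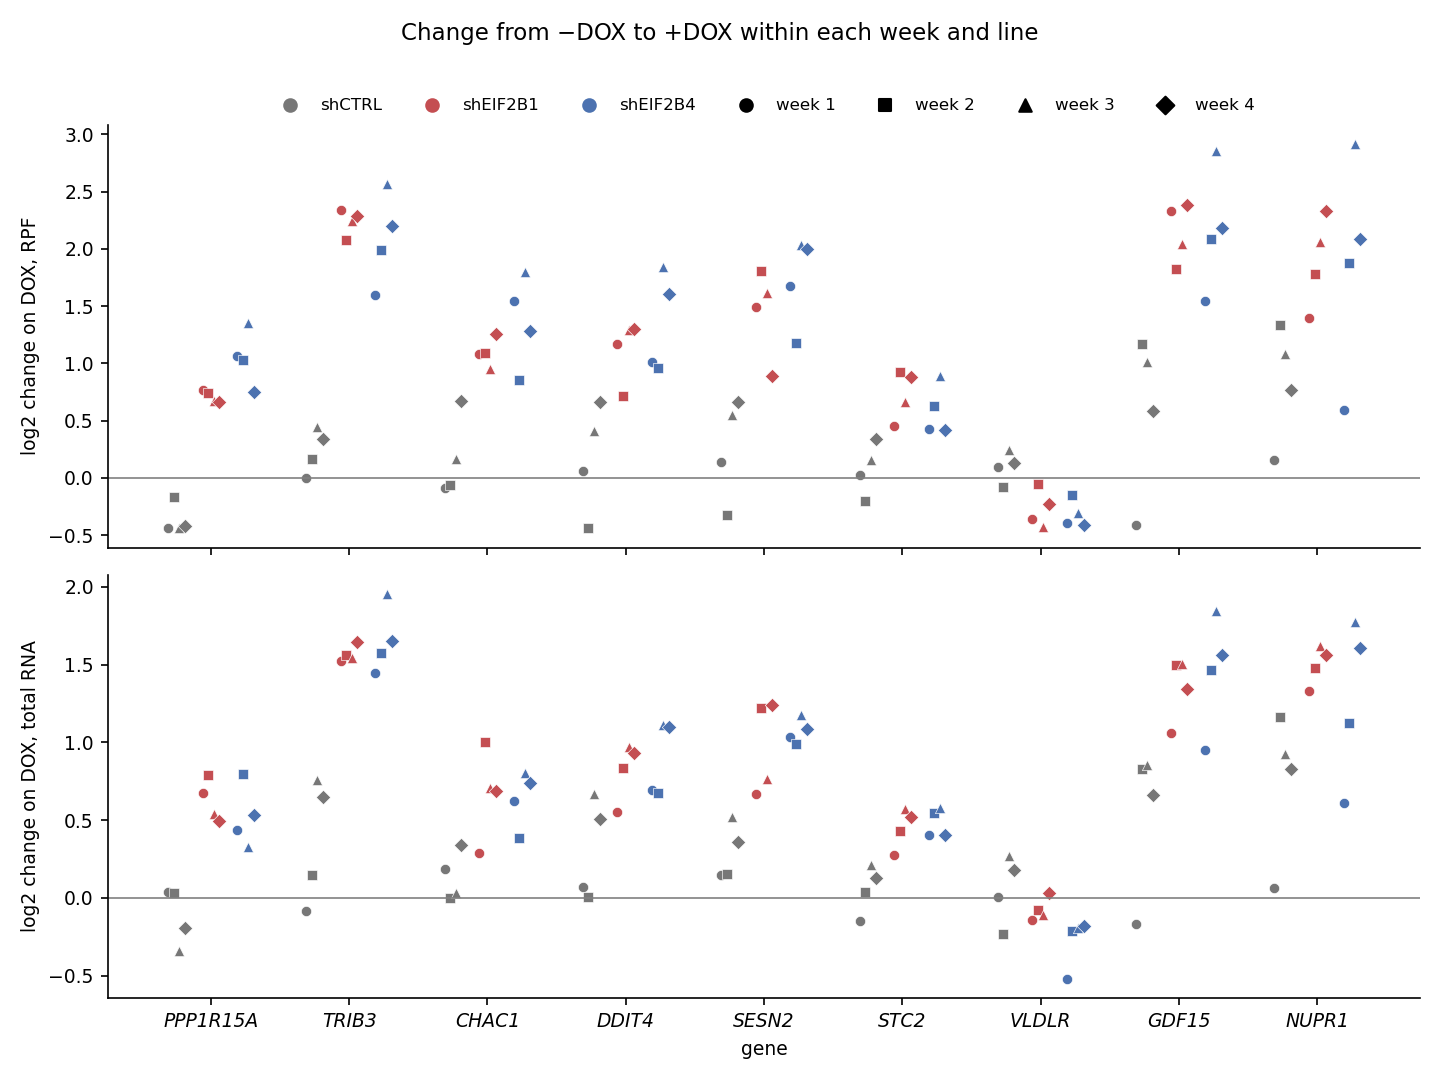
Change from -DOX to +DOX (log2) within each week and line for the 9 genes, in RPFs (top) and total RNA (bottom), without subtraction of shCTRL. Each point is 1 week (shape) of 1 line (colour). In shCTRL RPFs NUPR1 is above 0 in 4 of 4 weeks, 6 of the genes in 3 of 4, CHAC1 in 2 of 4 and PPP1R15A in none, and VLDLR is below 0 in all weeks of both knockdown lines in RPFs.

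Some of these genes moved on DOX in the shCTRL line. DOX also induces the non-targeting shRNA there, so the drug and the shRNA expression cannot be told apart. In RPFs NUPR1 rose by 0.83 (SE 0.16, adjusted p = 0.0372), which ranked 14 of all genes from the highest, and PPP1R15A fell by 0.37 (SE 0.10, adjusted p = 0.072), so that 2 of the 9 were called beside 9.85% of all genes. In total RNA NUPR1 rose by 0.75 (SE 0.14, adjusted p = 0.0458), which ranked 5 from the highest, and GDF15 by 0.54 (SE 0.14, adjusted p = 0.091), beside 4.44% of all genes called. NUPR1 total RNA was 5.62, 5.18, 5.40 and 4.80 and then 5.69, 6.35, 6.32 and 5.63 in that line, and GDF15 6.74, 6.62, 6.30 and 6.01 and then 6.57, 7.45, 7.15 and 6.67. Week 1 stood apart in both, with changes of 0.07 and -0.17 in total RNA against 0.66 to 1.17 in the other 3 weeks. The NUPR1 calls were lost without week 3 (adjusted p = 0.421 in RPFs and 0.274 in total RNA) or week 4 (0.192 and 0.186), in RPFs also without week 2 (0.155). GDF15 in total RNA was lost without week 2 (0.188), week 3 (0.422) or week 4 (0.305), and PPP1R15A in RPFs without week 2 (0.151), week 3 (0.45) or week 4 (0.308). Without week 1, TRIB3 and GDF15 were called higher in RPFs too (adjusted p = 0.0187 and 4.8e-07), which made 4 of 9 beside 31.6% of all genes, and TRIB3 (0.014), DDIT4 (0.0473) and SESN2 (0.0375) in total RNA, which made 5 of 9 beside 20.5%. For TE none of the 9 was called in shCTRL, beside 42 of all genes (0.388%) and 1630 at an unadjusted p under 0.05, 1 of them among the 9.

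The lines also differed before induction. RPFs of 4 of the 9 genes were lower in uninduced shEIF2B1 than in uninduced shCTRL cells, beside 54.1% of all genes called and 25.1% called lower: GDF15 by -0.44 (adjusted p = 0.00468), TRIB3 by -0.31 (0.0105), DDIT4 by -0.19 (0.0485) and STC2 by -0.16 (0.0885). GDF15 kept its call whichever week was left out. TRIB3 lost it without week 1 (adjusted p = 0.119), DDIT4 without week 1 (0.113), week 3 (0.124) or week 4 (0.176), and STC2 without week 2 (0.336), week 3 (0.19) or week 4 (0.115). In uninduced shEIF2B4 cells GDF15 was lower by -0.54 (adjusted p = 0.071), 1 of 9 beside 13.9% of all genes called and 12.4% called lower, in a comparison whose median over all genes was -0.13. After each library was centred on its median, GDF15 stood at -0.44 (adjusted p = 0.153). Leaving out week 2, 3 or 4 also ended the call (adjusted p = 0.222, 0.183 and 0.293). In total RNA limma called 0 of the 9 genes in either line, with values of -0.16 to 0.20, beside 1.4% of all genes in shEIF2B1 and 2.32% in shEIF2B4, and 1569 and 1890 genes at an unadjusted p under 0.05, none of them among the 9. These -DOX libraries are the ones from which the responses start.

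Across the 24 libraries, with each week's mean removed, the 36 pairs among the 9 genes had Pearson correlations from -0.827 to 0.960 in RPFs (median 0.869) and from -0.633 to 0.968 in total RNA (median 0.888). The points share the 6 conditions, so these values describe how alike the patterns over conditions are. All 8 pairs with VLDLR were negative in both measures, and the other 28 were positive. GDF15 and NUPR1 were the most alike in RPFs (0.960), and TRIB3 and SESN2 in total RNA (0.968).

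By the same measure in RPFs, the 3 genes outside the group most like TRIB3 were AKNA (0.984), HERPUD1 (0.982), which encodes a protein of ER-associated degradation, and LAMP3 (0.978). Those most like CHAC1 were CEBPB (0.966), which encodes a transcription factor that pairs with ATF4 and CHOP, INHBE (0.966) and AP1G2 (0.941). DDIT4 was nearest INHBE (0.946), SLC1A4 (0.944) and KCNG1 (0.942), and GDF15 was nearest SLC6A9 (0.978), a glycine transporter, UNC5B (0.976) and BLVRB (0.976). PPP1R15A was nearest UPP1 (0.952), SESN2 nearest SLPI (0.959), STC2 nearest CNPY4 (0.961) and NUPR1 nearest SLC16A4 (0.972). VLDLR had the lowest best likeness, to SORT1 (0.854), which also encodes a sorting and lipoprotein-binding receptor. In total RNA the nearest were LAMP3 to TRIB3 (0.987), XBP1 to DDIT4 (0.964), INHBE to CHAC1 (0.946), SLFN5 to SESN2 (0.973), KLK6 to STC2 (0.939), SLC16A4 to GDF15 (0.985), FHL1 to NUPR1 (0.964), NBPF1 to PPP1R15A (0.925) and NFE2L3 to VLDLR (0.800).

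No close relative of the 9 genes was called higher in either knockdown. Of 11 paralogs 9 were in each table, and limma called 0 higher in each of the 4 responses of RPFs and total RNA, with 0 higher at an unadjusted p under 0.05 as well. Of all genes, 12% (shEIF2B1) and 1.88% (shEIF2B4) were called higher in RPFs, and 2.34% and 3.78% in total RNA. A count of 0 of 9 is near these shares and does not set the paralogs apart from other genes. SESN3, a relative of SESN2, was lower in RPFs in both knockdowns (-0.57, adjusted p = 0.046, and -0.81, adjusted p = 0.0681), and in total RNA it was -0.05 with shEIF2B1 (adjusted p = 0.916) and fell by 0.56 with shEIF2B4 (adjusted p = 0.0721). In shCTRL RPFs SESN3 rose by 0.52 on DOX (adjusted p = 0.061), a change that enters both RPF responses. TRIB2 fell by 0.38 in total RNA with shEIF2B4 (adjusted p = 0.0475). SESN1 was at -0.22 and -0.36 in RPFs, TRIB1 at -0.14 and -0.14, CHAC2 at -0.12 and 0.03, LRP8 at -0.08 and -0.33, NUPR2 at -0.12 and -0.06, and PPP1R15B, the constitutive partner of the eIF2α phosphatase, at 0.22 and 0.04, none of them called.

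Other branches of the stress response were read from lists of known genes, beside the 12% (shEIF2B1) and 1.88% (shEIF2B4) of all genes called higher in RPFs. Of 10 transcription factors of the response, 5 rose in RPFs with shEIF2B1, among them ATF5 by 1.62 (adjusted p = 7.46e-06) and DDIT3 by 1.49 (6.14e-06), and 4 with shEIF2B4, with ATF5 at 1.65 (5.27e-05) and DDIT3 at 1.73 (0.000396). In serine, asparagine and proline synthesis 5 and 4 of 12 rose, with ALDH1L2 at 1.13 (adjusted p = 0.000748) and ASNS, asparagine synthetase, at 0.84 (0.0122) with shEIF2B1 and ASNS at 0.95 (0.0621) with shEIF2B4. Amino acid transporters gave 5 and 2 of 11, led in both by SLC6A9 with 1.25 (0.00102) and 1.05 (0.0608). None of these 3 lists had a gene called lower, and their median RPF responses, 0.16 to 0.42, were below the 1.06 and 1.20 of the 9 genes. In total RNA 4, 3 and 3 genes of these lists rose with shEIF2B1, beside 2.34% of all genes called higher. With shEIF2B4 4, 4 and 4 rose, beside 3.78%, the highest being ASNS with 1.29 (6.39e-05).

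Lists further from ATF4 were read in RPFs with shEIF2B1 beside the 12% of all genes called higher and 15.3% called lower. Of 20 cytosolic aminoacyl-tRNA synthetases 3 rose in RPFs, led by WARS1 (0.78, adjusted p = 0.00164), and 3 fell, among them RARS1 (-0.63, 0.0139), which are shares close to those of all genes, while in total RNA 5 rose, beside 2.34% of all genes, and none was called lower. ER chaperones and XBP1 or ATF6 targets gave 6 higher and 2 lower of 18, with HERPUD1 at 0.98 (5.01e-05) and HSP90B1 at -0.49 (0.03). Of 15 p53 targets, read because p53 also acts on SESN2 and GDF15, 6 rose and 2 fell in RPFs, with GADD45A at 0.67 (0.0135) and MDM2 at -0.50 (0.0233), and in total RNA 1 of 16 rose. Of 13 hypoxia targets 3 rose, led by LOX (1.62, 2.76e-05), and 2 fell, led by P4HA1 (-0.64, 0.00399), while NRF2 targets gave 3 higher and 1 lower of 11 and interferon-stimulated genes 2 higher of 8.

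The proteins on which some of the 9 act were read the same way, in RPFs with shEIF2B1. Of 16 mTORC1 inputs 3 were called (2 higher and 1 lower), a smaller share than the 27.3% of all genes. TSC2, through which DDIT4 acts, rose by 0.71 (adjusted p = 0.00303), WDR24, a subunit of the GATOR2 complex bound by SESN2, rose by 0.51 (0.0126) and RHEB, the GTPase that activates mTORC1, fell by 0.82 (0.00641). In the eIF2 phosphorylation cycle 4 of 9 fell, beside 15.3% of all genes called lower, and none was called higher, beside 12%. EIF2S1, which encodes eIF2α, was at -0.88 (0.00293) and EIF2AK2 at -0.67 (0.0176). In total RNA limma called 0 of 17 and 0 of 9 in these lists with either knockdown, with 2 and 0 at an unadjusted p under 0.05 for shEIF2B1 and 2 and 1 for shEIF2B4. With shEIF2B4, where 2.75% of all genes were called in RPFs and 5.4% in total RNA, the RPF counts were 2 higher and 0 lower of 20 synthetases, 3 and 0 of 18 ER genes, 2 and 1 of 15 p53 targets, 2 and 0 of 13 hypoxia targets and by limma 0 called in the NRF2, mTORC1, eIF2 cycle and interferon lists, with 4, 4, 1 and 1 at an unadjusted p under 0.05. In its total RNA the counts were 5 and 0 of 20, 5 and 0 of 18, 2 and 0 of 16, and 1 and 2 of 13 for the first 4 of these lists, with WARS1 at 0.97 (4.3e-06) and DNAJB9 at 0.78 (0.0146).

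SLC7A11 stands in both the transporter and the NRF2 list, SESN1 among both the paralogs and the p53 targets, and PPP1R15B among both the paralogs and the eIF2 cycle.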

How the data were processed

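RPFs and total cytoplasmic RNA of 24 SW480 lysates (48 libraries, 4 replicates) were analysed, grouped by the labels of the samples, and none was left out. According to the methods, the authors used Bowtie2 to align reads to protein-coding transcripts of GENCODE v38 and RSEM for total RNA levels, kept 1 transcript per gene and counted RPFs on the coding sequence. The submitters' processing notes name cutadapt 1.18, SAMtools 1.9, DESeq2 and R 4.3.1. Deposited tables hold log2 values after the regularized log transform of DESeq2, which the authors ran on RPFs and on total RNA separately. Replicate 3 was sequenced in 2 runs. Counts were not part of the files, so depth is unknown and no count test was run.

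limma 3.58.1 in R 4.3.3 (moderated test with a mean-variance trend, Benjamini-Hochberg adjustment, threshold 0.1) was fitted across all genes to line, DOX, their product and replicate over 16 libraries, following the methods. Uninduced lines and DOX in shCTRL were compared over 8 libraries, and knockdown responses over 24. The replicates are weeks: 52 of 60 same-numbered RPF pairs, 37 of 60 total RNA pairs and 55 of 60 TE pairs correlated above 0.1 after condition means were removed. On simulated data the fit called 92% of RPF and 99% of total RNA changes of 1 on the log2 scale for shEIF2B1, with 23 and 14 false calls. The simulated noise was independent between libraries and the week effects were common to all lines. The shares therefore do not cover week effects that differ between lines. Alternatives were a stricter threshold of 0.05, no block, a block per line and week, all 24 libraries, no trend, centring, no shCTRL subtraction, leaving out the lowest 25% of genes, and leaving out each week.

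The 9 genes and all lists were chosen with earlier results of these data known. Genes named were the 9, the depleted subunits, ATF4 and DDIT3, paralogs, at most 2 rises and 2 falls per list and the 3 genes most like each of the 9. Listed genes were counted where a table held them, and some are not reported here by name. Positions are from GENCODE v29 (GRCh38), matched by gene identifier, and promoter letters from RefSeq. Figures used matplotlib 3.10.9.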

Additional observations from a re-analysis of the deposited data

Results flagged for a closer look

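Of 108 groups of 4 libraries of the 9 genes, 1 held a library apart from the other 3 by Dixon's test, where chance gives about 1 in 20. VLDLR total RNA in uninduced shEIF2B4 cells was 10.4 in week 1 against 9.91, 9.95 and 9.99 in the other weeks. Without week 1 its total RNA response to shEIF2B4 was -0.27 in place of -0.33, not called in either case (adjusted p = 0.323 and 0.186).

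PPP1R15A RPFs moved in opposite directions on DOX in every week, down in shCTRL (mean change -0.37) and up in shEIF2B1 (0.71) and shEIF2B4 (1.05). The difference is the response itself, tested with limma at 1.08 (adjusted p = 2.99e-05) and 1.41 (adjusted p = 3.49e-05), so 0.37 of each response comes from the control line.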

How the results depend on the processing

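Counts are of the 9 genes called at an adjusted p under 0.1 unless stated. Percentages in brackets are the shares of all genes called. Leaving out each week in turn gave 8 to 9 for RPFs with shEIF2B1 (13.7% to 24.4%), 2 to 6 for total RNA (0.929% to 5.4%) and 0 to 3 for TE (0% to 12.6%). With shEIF2B4 it gave 4 to 9 (0.386% to 14.5%), 3 to 6 (1.82% to 4.15%) and 0 to 7 (0% to 13.1%). In shCTRL on DOX it gave 0 to 4 calls for RPFs (0.0269% to 31.6%) and 0 to 5 for total RNA (0.0251% to 20.5%). For uninduced shEIF2B1 the range was 2 to 4 for RPFs (42.6% to 48.6%) and 0 to 1 for total RNA (0.41% to 1.28%). For uninduced shEIF2B4 RPFs it was 0 to 6 (0% to 47.6%). The low counts came without week 2, 3 or 4 with shEIF2B4 and in shCTRL, and the high ones without week 1. Without the replicate block the counts with shEIF2B1 were 2 in RPFs (0.449%), 4 in total RNA (1.6%) and 0 in TE (0%). With shEIF2B4 the count in RPFs was 1 (0.323%). It was 0 in shCTRL RPFs (0%) and total RNA (0.0753%), and 0 in uninduced RPFs of shEIF2B1 (0%) and shEIF2B4 (0.00897%). A block for each line and week gave 6 TE calls with shEIF2B4 (beside 3.9% of all genes), and all 24 libraries in one fit gave 1 TE call in each knockdown (0.406% and 0.351%). No shCTRL correction gave 5 and 7 TE calls (17.1% and 6.21%). Leaving out the lowest 25% of genes removed CHAC1, SESN2 and NUPR1 from the total RNA fits and NUPR1, with SESN2 in 8-library fits, from the RPF fits. It left 5 calls in total RNA with shEIF2B1 (3.37% of the genes kept), 1 in shCTRL RPFs (12.2%) and 1 in shCTRL total RNA (5.48%). In uninduced shEIF2B4 RPFs it left 0 (0.012%). At an adjusted p under 0.05 shCTRL had 1 call in RPFs (2.46%) and 1 in total RNA (0.343%). Uninduced shEIF2B4 RPFs then had 0 (0.691%), which centring gave too (0.153%). Of all genes called in RPFs, centring moved the share called higher from 53.1% to 41.7% in shCTRL, and in TE with shEIF2B1 from 41.9% to 51.8%. The number of all genes called moved as well: 3038 in RPFs with shEIF2B1 became 50 without the replicate block and 5507 without shCTRL correction, 307 with shEIF2B4 became 36 and 2655, 414 in total RNA with shEIF2B1 became 111 without week 1 or week 4 and 4104 without shCTRL correction, and 645 with shEIF2B4 became 217 without week 4 and 4112. The cause of these moves was not tested.

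Over single genes, 1257 of 1458 recomputed values kept direction and side of the threshold, 98 lost and 58 gained a call, and 45 turned direction, none of them called before or after. Those printed here are listed with the range over weeks left out. STC2 ran from -0.014 to 0.18 for TE with shEIF2B4 and from -0.0039 to 0.18 in shCTRL RPFs. VLDLR ran from -0.014 to 0.15 in shCTRL total RNA. RPF differences between knockdowns ran from -0.31 to 0.049 for TRIB3, -0.011 to 0.57 for SESN2, -0.24 to 0.29 for GDF15 (-0.0078 after centring) and -0.32 to 0.24 for NUPR1. In uninduced RPFs CHAC1 ran from -0.11 to 0.096 for shEIF2B1, and for shEIF2B4 PPP1R15A ran from -0.091 to 0.012 (0.062 after centring) and VLDLR from -0.057 to 0.10.

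The depth of the libraries is unknown, and regularized values understate the changes of low genes such as NUPR1, CHAC1 and SESN2.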
